A study of Mus musculus with 8 samples.

Results

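The 10 genes Cdkn1a, Phlda3, Gtse1, Plk2, Zmat3, Pmaip1, Ccng1, Mdm2, Bbc3 and Trp53inp1 are targets of the transcription factor p53. They were taken by their annotated symbols from the 16593 genes named on an Illumina MouseRef-8 bead array, where 23 probes carry them. They were chosen by their high signals on the array of CD69+ T cells from rejecting recipients relative to naive CD69+ cells, so every comparison with that array is a description here, without a test.

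p53 is held at a low level by the ubiquitin ligase Mdm2 and accumulates after DNA damage and other stress, when it binds response elements near its target genes. Some of its targets stop the cell cycle, above all the cyclin-dependent kinase inhibitor p21, encoded by Cdkn1a. Others, such as the BH3-only proteins Puma and Noxa, start the mitochondrial route of cell death. Mdm2 is itself a target and so closes a negative feedback loop. Strongly stimulated, dividing T cells are known to engage this pathway.

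The T cells came from spleen and lymph nodes of male C57BL/6 mice. Recipients had received tail skin from BDF1 donors, the cross of C57BL/6 and DBA/2. Rejecting mice were left untreated and used on day 7 after grafting, tolerant mice (day 100) and early tolerant mice (day 21) had been given a transfusion of donor cells with the CD40L antibody MR-1, and naive mice had no graft. Every culture lasted 20 to 21 hours and held dendritic cells derived from donor marrow, after which the T cells were sorted by CD69, a surface protein of recently activated lymphocytes. Each of the 8 arrays thus stands alone for 1 of 4 recipient states in 1 of 2 fractions. Recipient state is tied to the day after grafting, and no group was cultured without donor dendritic cells. The sources used here give neither the number nor the age of the mice behind an array. The sorting text names both fractions as CD69+, so the fraction was taken from the sample titles.

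Signals below are background-corrected, quantile-normalized intensities on a linear scale, always given in the order naive, tolerant, early tolerant and rejecting. A gene was called detected on an array with a detection p under 0.01. From 37.3% to 40.1% of probes were detected on an array (9593 to 10308), and precision is limited by how few arrays there are. The transcript of Cd69 had signals of 7543, 4436, 5511 and 5636 in the fractions labelled CD69+ and of 3004, 1922, 1903 and 1905 in those labelled CD69-. All 8 T cell markers tested were detected on every array. The 18 dendritic and myeloid markers tested had summed signals of 12483, 45733, 32990 and 4712 in the CD69+ fractions, with 14, 18, 18 and 12 of them detected. In the CD69- fractions the sums were 3294, 7025, 4905 and 1882, with 11, 13, 13 and 10 detected. Itgax and Itgam, which define these cells, did not pass the detection filter. The rejecting CD69+ array, on which the p53 targets were high, therefore had the lowest sum of these markers among the CD69+ arrays. Among the T cell markers, the CD8 beta chain gene Cd8b1 was higher on that array than on the other CD69+ arrays, with CD69+ signals of 14736, 8938, 13337 and 25776. Its CD69- signals were higher still, at 48551, 48551, 49152 and 49152. The alpha chain gene Cd8a did not pass the detection filter. Klre1, the 1 NK cell marker of 4 listed that was tested, had CD69+ signals of 80.1, 37.7, 88.8 and 179, the second not detected. Its CD69- signals were 157, 118, 94.2 and 243, above the CD69+ signal in each state. In both fractions it was highest under rejection. The summed signal of the 8 T cell markers was 84187, 89410.1, 86412 and 107879.9 in CD69+ cells and 146489 to 154289 in CD69- cells. The part of these markers in the results was not tested. In bulk RNA, fewer cells of a type and less RNA per cell cannot be told apart.

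RefSeq promoter windows, from 250 bases before to 50 after a transcription start on mouse build GRCm38.p6, were found for 7 of the 10 genes (11 windows). Zmat3, Pmaip1 and Trp53inp1 had none. The 10-base p53 half-site consensus, which reads the same on both strands, was present in a window of 4 genes, Cdkn1a, Gtse1, Ccng1 and Mdm2. By window this was 4 of 11, against 8.36% of all 32851 windows. By gene, the share with a match was 9.55% of all genes with a window. Of the 11 windows, only 1 of Cdkn1a held a pair of half-sites no more than 13 bases apart, an arrangement found in 0.0731% of all windows. A match is a description of letters and not evidence of binding. The sequences show the cycle inhibitor beside the targets with a single match, with half-sites in capitals. They lie at chr17:29090729-29090978 (plus strand) for Cdkn1a, chr11:40755287-40755536 (minus strand) for Ccng1, chr10:117710759-117711008 (minus strand) for Mdm2 and chr15:85859945-85859974 (plus strand) for Gtse1.
Cdkn1a: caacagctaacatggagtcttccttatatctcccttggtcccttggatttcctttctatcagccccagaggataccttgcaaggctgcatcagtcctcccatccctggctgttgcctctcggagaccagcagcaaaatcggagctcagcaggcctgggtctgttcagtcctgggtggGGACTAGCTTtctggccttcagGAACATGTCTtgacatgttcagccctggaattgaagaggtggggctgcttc
Ccng1: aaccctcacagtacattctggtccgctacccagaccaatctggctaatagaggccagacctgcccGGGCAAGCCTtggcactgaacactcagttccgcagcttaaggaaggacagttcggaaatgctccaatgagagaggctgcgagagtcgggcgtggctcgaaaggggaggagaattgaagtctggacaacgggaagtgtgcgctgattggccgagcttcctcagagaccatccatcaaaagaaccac
Mdm2: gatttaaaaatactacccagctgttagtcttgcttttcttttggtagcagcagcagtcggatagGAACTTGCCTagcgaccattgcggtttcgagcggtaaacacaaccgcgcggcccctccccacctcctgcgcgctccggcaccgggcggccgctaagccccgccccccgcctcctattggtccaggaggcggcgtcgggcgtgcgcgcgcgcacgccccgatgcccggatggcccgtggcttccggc
Gtse1: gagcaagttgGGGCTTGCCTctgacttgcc
In Cdkn1a the half-sites began 73 and 51 bases before the first of its annotated starts and were separated by 12 bases. The window of its other start held none. The single half-site began 185 bases before the start in Ccng1 and 186 bases before it in Mdm2. In Gtse1 it began at base 10 after the second of its annotated starts.

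All 10 genes passed the detection filter, which asked for detection on 2 or more of the 8 arrays and left 7403 genes. The filter favours genes high in 1 fraction: Plk2 was detected on 4 arrays, all CD69+, and Phlda3 on 5 and Pmaip1 on 4. Each gene is given by its brightest probe. The fractions were compared outside rejection with limma's moderated test across all 7403 genes, using the naive, tolerant and early tolerant pairs, with recipient state as a block and 2 residual degrees of freedom. The 3 states stand in for replicates, so the p-values set the fraction difference against its spread across states. The test draws that spread toward a value common to all genes (4.28 prior degrees of freedom).

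In those 3 states the 10 genes did not share a direction. Cdkn1a, Phlda3, Gtse1 and Plk2 were higher in CD69+ cells, Bbc3, Trp53inp1, Ccng1 and Mdm2 were lower, and Zmat3 and Pmaip1 did not pass the test (Benjamini-Hochberg adjusted p under 0.05). Of all genes tested, 71.8% passed in either direction, 34.6% higher and 37.2% lower, so the counts of 4 and 4 of 10 lie near the background. Phlda3, Plk2 and Pmaip1 passed the filter only through their CD69+ arrays, so a fraction difference of theirs was favoured by the filter and their calls add no support. Of the 7 genes detected on at least 2 arrays of each fraction, 2 were higher and 4 lower, against 31.7% and 38.4% of the 6385 such genes. The naive CD69+ array had also served in choosing the genes, and without the naive pair 4 were higher and 2 lower. Of all 7403 genes, 2299 were higher and 2418 lower in that run.

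Cdkn1a, the p21 gene, had CD69+ signals of 634, 764, 1062 and 5837. Its CD69- signals were 71.0, 150.3, 84.6 and 303, the first not detected. The CD69+ arrays all lay above the CD69- arrays, and rejecting was the highest array of each fraction. Outside rejection the fraction difference was 3.05 on the log2 scale (SE 0.24, 3 pairs, limma adjusted p = 7.91e-05), higher in 3 of 3 pairs. The rejecting CD69+ signal was 9.21-fold the naive, 7.64-fold the tolerant and 5.49-fold the early tolerant one. In the CD69- fraction it was also higher under rejection, at least 3.90-fold over naive, 2.01-fold over tolerant and 3.58-fold over early tolerant. The other 2 probes of Cdkn1a gave rejecting minus naive differences of 3.14 and 3.12 (log2) in CD69+ cells. In CD69- cells both were undetected on the naive array. The brighter of them was detected on the tolerant, early tolerant and rejecting CD69- arrays, with signals of 113, 87.0 and 147. By that probe rejecting was less than 1.5-fold over tolerant and more than 1.5-fold over early tolerant. The dimmer one was detected on no CD69- array.

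Phlda3, whose product competes with Akt for membrane lipids, had CD69+ signals of 286, 338, 302 and 2853. Its CD69- signals were 31.7, 29.0, 29.6 and 101, and only the last was detected. No CD69- array overlapped the CD69+ range. Outside rejection CD69+ cells were at least 3.94-fold higher (limma adjusted p = 1.07e-05), a difference that the detection filter favoured. The rejecting CD69+ signal was 9.97-fold the naive one, the second highest ratio of the 7403 genes. In CD69- cells it was at least 1.30-fold the naive one.

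Gtse1, which encodes a microtubule-associated regulator of p53 expressed in the S and G2 phases, had CD69+ signals of 848, 809.7, 1109 and 5066. The CD69- signals were 139.9, 174, 185 and 374. The fractions did not overlap, and rejecting was again the highest in both. Outside rejection the difference was 2.47 (log2; SE 0.13, 3 pairs, limma adjusted p = 2.14e-05). Under rejection it was 5.97-fold the naive signal in CD69+ cells and 2.68-fold in CD69- cells.

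Plk2, a polo-like kinase, had CD69+ signals of 81.7, 90.0, 113 and 575. It was not detected on any CD69- array, where its signals were 59.5, 51.3, 54.1 and 57.5. Outside rejection its CD69+ level was higher by at least 1.20-fold (limma adjusted p = 0.00311), a difference likewise favoured by the detection filter. The rejecting CD69+ signal was 7.04-fold the naive one, and the CD69- side gives no ratio because both arrays lay below detection.

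**Figure D1:**
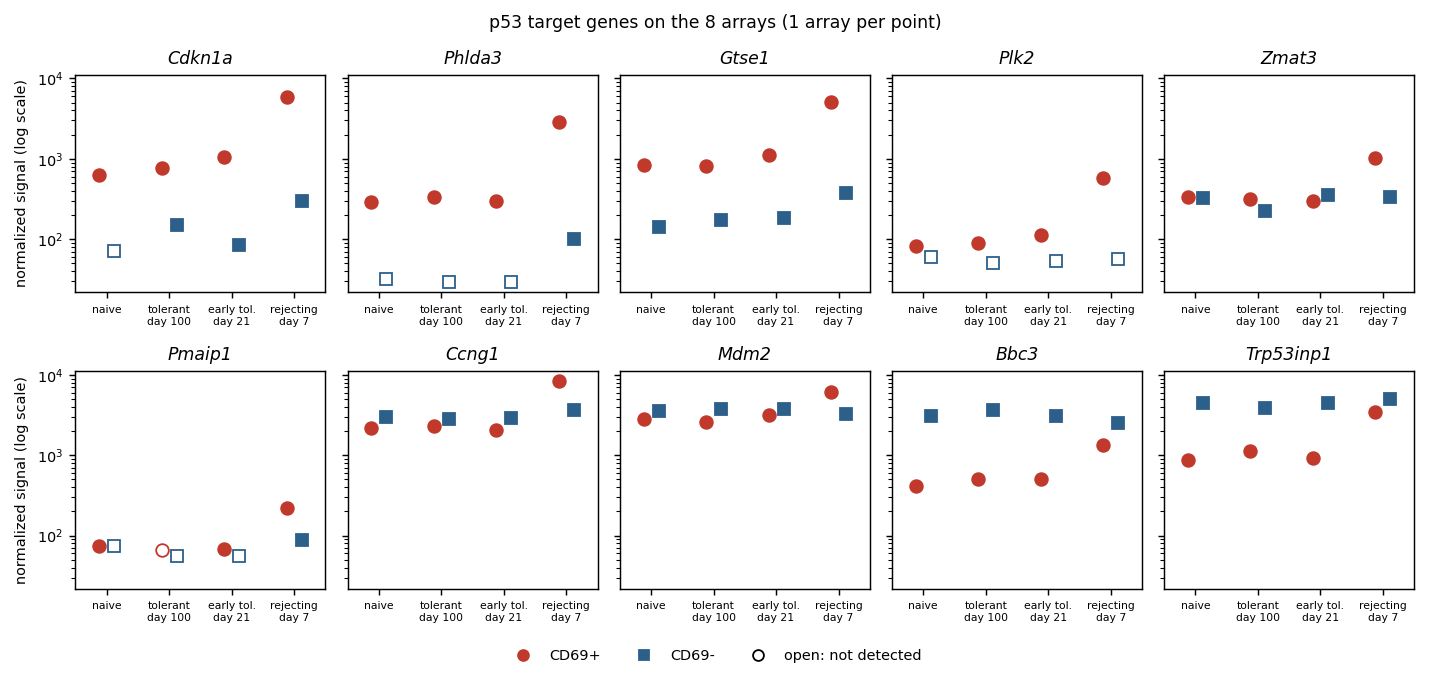
Normalized signal (log scale) of the 10 p53 target genes on the 8 arrays, by recipient state, with circles for CD69+ and squares for CD69- and open symbols for arrays where the gene was not detected; each point is 1 array. The rejecting CD69+ circle is the highest CD69+ value of each gene, from 221 for Pmaip1 to 8427 for Ccng1.

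Bbc3 encodes Puma, a BH3-only death protein, and had the opposite order of fractions. Its CD69+ signals were 411, 502, 505 and 1348, and its CD69- signals were 3084, 3667, 3072 and 2489. Every CD69- array lay above every CD69+ array. Outside rejection Bbc3 was 6.94-fold lower in CD69+ cells (log2 difference -2.79, SE 0.12, 3 pairs, limma adjusted p = 1.47e-05). Under rejection the CD69+ signal was 3.28-fold the naive one, while the CD69- signal had a log2 difference of -0.31. The other 2 probes of Bbc3 were detected on 2 arrays each and on no CD69+ array, so that fraction is described by the bright probe alone.

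Trp53inp1, a stress protein that takes part in autophagy and cell death, had CD69+ signals of 862, 1136, 911 and 3425. Its CD69- signals were 4497, 3883, 4497 and 5029, all above the CD69+ range. It was 4.45-fold lower in CD69+ cells outside rejection (log2 difference -2.15, SE 0.15, 3 pairs, limma adjusted p = 5.33e-05). The rejecting CD69+ signal was 3.97-fold the naive one and stayed below the rejecting CD69- signal. A second probe gave -2.43 (log2) between fractions and 2.14 for rejecting minus naive CD69+.

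Pmaip1, the gene of the BH3-only protein Noxa, lay near the detection limit. Its CD69+ signals were 74.1, 66.4, 67.2 and 221, and its CD69- signals were 73.6, 55.8, 55.4 and 88.3. It was detected on the CD69+ arrays other than tolerant and on the rejecting CD69- array. Outside rejection the fractions overlapped (0.18, log2; SE 0.12, 3 pairs, limma adjusted p = 0.206). The rejecting CD69+ signal was 2.98-fold the naive one, and the rejecting CD69- signal at least 1.14-fold.

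Ccng1, which encodes cyclin G1, a partner of a phosphatase that acts on Mdm2, had CD69+ signals of 2174, 2283, 2033 and 8427. Its CD69- signals were 2990.1, 2786, 2878 and 3621. Outside rejection it was lower in CD69+ cells in 3 of 3 pairs (-0.42, log2; SE 0.11, limma adjusted p = 0.0152). That call was lost without the naive pair (adjusted p = 0.0735) or the early tolerant pair (0.0812), and the other 2 probes gave -0.07 and -0.02. In the rejecting pair CD69+ was the higher fraction, by 1.22 (log2).

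Mdm2, the ligase that degrades p53, had CD69+ signals of 2803, 2559.7, 3154 and 6099.9 and CD69- signals of 3566, 3794, 3746 and 3240.3. Outside rejection CD69+ cells were lower in 3 of 3 pairs (-0.39, log2; SE 0.12, limma adjusted p = 0.0247). The call was lost without the naive pair (adjusted p = 0.0736) or the tolerant pair (0.0944), and another bright probe gave -0.11. In the rejecting pair CD69+ was higher by 0.91 (log2). Mdm2 had the smallest rejecting-to-naive ratio of the 10, 2.18-fold.

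Zmat3, an RNA-binding zinc finger protein that regulates splicing, had CD69+ signals of 335, 320.2, 302 and 1009.7. Its CD69- signals were 322, 224, 358 and 331. Outside rejection the fractions overlapped (0.11, log2; SE 0.16, 3 pairs, limma adjusted p = 0.571). The rejecting CD69+ array lay above the other 7, at 3.01-fold the naive CD69+ signal, and the rejecting CD69- array lay within the range of the other CD69- arrays.

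**Figure D2:**
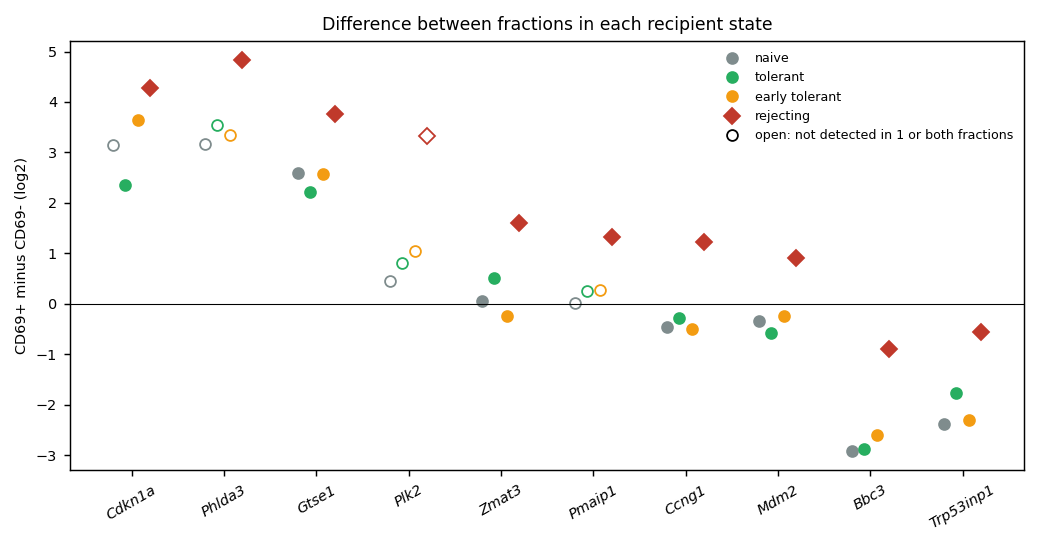
Difference between CD69+ and CD69- cells (log2) of each gene in each recipient state, with open symbols where 1 or both fractions were not detected; each point is 1 pair of arrays. The rejecting diamond is the highest point of every gene, while the other states run from above 3 for Phlda3 to below -2 for Bbc3.

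Counted state by state at 1.5-fold, 3 of the 10 were higher and 2 lower in CD69+ cells of naive mice (backgrounds of 28.7% and 29.2% of all genes). In tolerant cells 4 were higher and 2 lower (29% and 28.6%), and in early tolerant cells likewise 4 and 2 (27.9% and 29.7%). Setting undetected sides at their bound left 3 higher in each of these states. In the rejecting pair 8 were higher and 1 lower (26.4% and 26.8%). Cdkn1a, Phlda3, Gtse1 and Plk2 had higher values in CD69+ cells in all 4 pairs, and Bbc3 and Trp53inp1 had lower ones, while Ccng1 and Mdm2 were lower in CD69+ cells of 3 pairs and higher in the rejecting pair. Zmat3 and Pmaip1 differed by 1.61 and 1.32 (log2) in the rejecting pair. The rejecting pair stood above the other 3 pairs in each of them. The excess of the rejecting difference over the mean of the others was 2.55 (log2) for Plk2 and 1.91 for Bbc3. It was 1.63 for Ccng1, 1.60 for Trp53inp1, 1.50 for Zmat3, 1.47 for Phlda3 and 1.30 for Mdm2. Gtse1 had 1.29, Cdkn1a 1.22 and Pmaip1 1.14. The values of Plk2, Phlda3, Pmaip1 and, for the naive pair, Cdkn1a rest partly on undetected CD69- signals. The excess was at least 1.5-fold for 10 of 10 genes, against a background of 6.82% of all genes, and at least 1.5-fold over each other pair for 10 of 10, against 3.57%. These counts share the rejecting CD69+ array that chose the genes, and nothing is read from them.

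The same array exceeded each other CD69+ array by at least 1.5-fold for 10 of 10 genes, against 2.62% of all genes, which again follows from the choice. Against single states the count was 10 higher and 0 lower each time, with backgrounds of 6.59% and 5.81% for naive, 7.39% and 8.16% for tolerant and 6.89% and 6.78% for early tolerant. The CD69- arrays, which did not enter the comparison that chose the genes, gave 3 of 10 against a background of 1.36%. Earlier results of these data were known at the choice, so this count too is a description. The 3 were Cdkn1a, Phlda3 and Gtse1, each by its brightest probe. The same threshold was met by 3 of the 15 tested cell cycle genes that p21 is known to repress. A second Cdkn1a probe had signals of 147 on the rejecting and 113 on the tolerant CD69- array, less than 1.5-fold apart. The third Cdkn1a probe and the other Phlda3 and Gtse1 probes were not detected on any CD69- array. Against naive CD69- cells alone 3 were higher and 0 lower (3.67% and 4.42%), against tolerant 4 and 0 (4.51% and 5.62%) and against early tolerant 4 and 0 (4.19% and 4.2%). With undetected signals at their bound, each of these 3 counts of higher genes was 2. With undetected signals set at their bound 2 remained above every other state, Cdkn1a and Gtse1. Whether the rejecting excess over the other states differed between fractions was not tested. Rejecting minus other CD69- differences ran from 0.28 to 0.38 (log2) for Ccng1, from -0.11 to 0.56 for Zmat3, from -0.23 to -0.14 for Mdm2, from -0.56 to -0.30 for Bbc3 and from 0.16 to 0.37 for Trp53inp1. Pmaip1 was at least 1.12-fold to at least 1.14-fold higher, and Plk2 was below detection on every CD69- array, so these arrays do not settle their CD69- levels. The median over the 10 genes of rejecting minus naive was 1.97 in CD69+ cells (all genes -0.01) and 0.21 in CD69- cells (0.17 with bounds; all genes 0.03). These comparisons share the rejecting arrays. With 1 array per group, none has a replicate check.

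**Figure D3:**
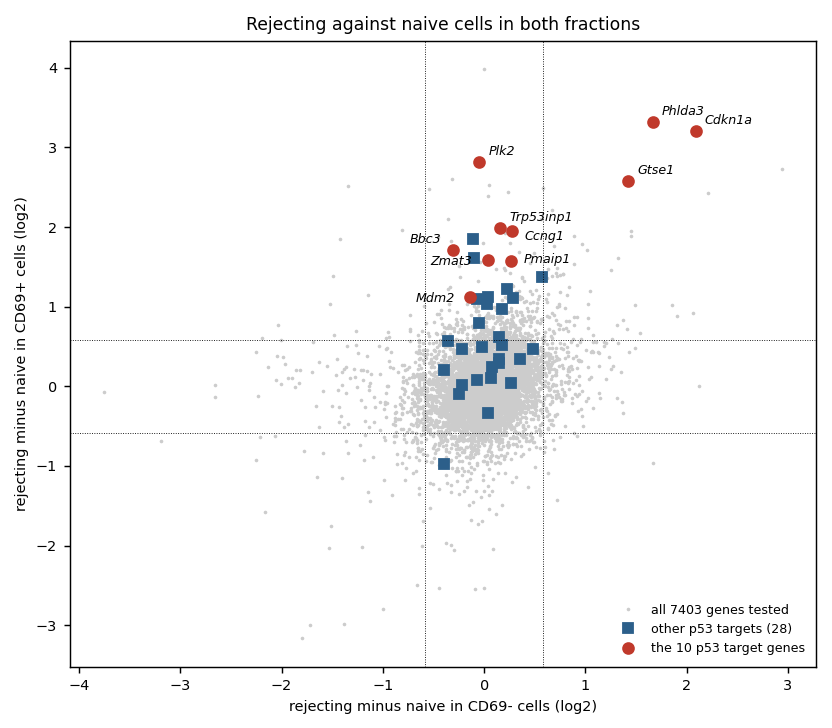
Rejecting minus naive difference (log2) in CD69- cells (horizontal axis) and in CD69+ cells (vertical axis) for 7403 genes, with the 10 p53 target genes as labelled circles, 28 other targets as squares and dotted lines at 1.5-fold. Cdkn1a, Phlda3 and Gtse1 lie to the right of the dotted line as well as above it, and the other 7 lie between the vertical lines.

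The study's design text names 3 criteria for a candidate rejection gene, at least 1.5-fold over tolerant CD69+ cells, at least 1.5-fold over CD69- cells of rejecting mice, and a signal of 500 or more in rejecting CD69+ cells. Of the 10 genes, 7 met all of them, against 1.39% of all genes tested. Bbc3 and Trp53inp1 missed on the fraction and Pmaip1, with a signal of 221, on the level. The deposited normalized values, which come from the same intensities, gave the same 7, against 1.28%. All 3 criteria use the rejecting CD69+ array that chose the genes, and nothing is read from these counts.

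By Pearson correlation of log2 values over the 8 arrays, among genes with an SD of at least 0.5, the genes most like Cdkn1a were Gtse1 (r = 0.991) and Phlda3 (0.983). Dstn (0.978), Tubb6 (0.976), Tbc1d2 (0.975), Tg (0.975), Txn1 (0.974) and Fam229b (0.973) followed. Plk2 had 0.891, Pmaip1 0.751 and Zmat3 0.699. Ccng1 had 0.460, Mdm2 0.327, Trp53inp1 -0.460 and Bbc3 -0.625. These are descriptions over 8 arrays that share fractions and states.

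Other p53 targets were counted from a list of 39, of which 35 had a probe and 28 were tested. Outside rejection 9 were higher in CD69+ cells and 14 lower (backgrounds of 34.6% and 37.2%), with a median of -0.28 (-0.15 with bounds, all genes -0.04). Of the 28, 7 had passed the filter only through CD69+ cells and 1 only through CD69- cells. Among the 20 detected in both fractions, 4 were higher and 13 lower (31.7% and 38.4% of such genes). Rps27l, a ribosomal protein paralog, was higher by 1.79 (log2, limma adjusted p = 4.2e-05). Rrm2b, a ribonucleotide reductase subunit, had -1.87 (limma adjusted p = 3.84e-05), Dgka, a diacylglycerol kinase, -2.26 (6.02e-05) and Sesn1, a stress sensor of the mTOR pathway, -1.89 (7.32e-05).

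Under rejection, 11 of the 28 were at least 1.5-fold above naive in CD69+ cells (39.3%, background 6.59%) and 1 was lower, the autophagy gene Dram1 (-0.98, 0 lower with bounds). Counts of this list are descriptions, because it was chosen with earlier results of these data known. In CD69- cells the counts were 0 and 0 (backgrounds of 3.67% and 4.42%), with 7 of the 28 undetected on 1 or both arrays. The medians were 0.48 (log2) and 0.04 (0.00 with bounds). Polk, a translesion DNA polymerase, had CD69+ signals of 214, 173, 162 and 770 and CD69- signals of 294, 342, 243 and 273. Apaf1, the core of the apoptosome, had CD69+ signals of 1616, 1691, 1478 and 3755, and Ei24, a p53-induced membrane protein, 1247, 1374, 1088 and 2715. For each of these the rejecting CD69+ array stood above the other 3 CD69+ arrays. The same held by at least 1.5-fold for 8 of the 28 in CD69+ cells (background 2.62%) and for 0 in CD69- cells (1.36%). The 8 also include Sesn2, Pidd1, Ercc5, Ppm1d and Dcxr. Sesn2, Pidd1 and Dcxr had passed the filter only through CD69+ cells, and Sesn2 and Pidd1 were below detection on every CD69- array.

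Of 23 regulators of p53, 13 were tested. Outside rejection 2 were higher in CD69+ cells, the checkpoint kinase genes Chek1 and Chek2 (background 34.6%). The 3 lower ones (background 37.2%) were the ubiquitin ligase gene Rchy1 (-1.14, log2, limma adjusted p = 0.000169), the acetyltransferase gene Ep300 (-1.26, 0.000908) and the deacetylase gene Sirt1 (-0.73, 0.00151). Both kinase genes were below detection in CD69- cells and passed the filter only through CD69+ cells, and their difference was at least 1.93-fold for Chek1 and 1.39-fold for Chek2. Between rejecting and naive CD69+ cells 0 were at least 1.5-fold higher (background 6.59%) and 2 lower (5.81%), Chek1 (-0.78) and Atm (-0.63). Trp53 itself was not analysed here, and Mdm4 did not pass the detection filter.

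Cell cycle genes that p21 is known to repress through the DREAM complex were mostly higher in CD69+ cells outside rejection. Of 24 listed, 15 were tested, 13 were higher and 1 lower (backgrounds of 34.6% and 37.2%), with a median of 2.49 (2.09 with bounds). Of these, 5 had passed the filter only through CD69+ cells, and among the other 10, detected in both fractions, 8 were higher and 1 lower (31.7% and 38.4% of such genes). The survivin gene Birc5 had a difference of 3.73 (log2, limma adjusted p = 9.48e-06), and the mitotic kinase gene Cdk1, not detected in CD69- cells of these states, was at least 13.1-fold higher. Between rejecting and naive, 2 were at least 1.5-fold higher in CD69+ cells (background 6.59%) and 0 lower (5.81%), with a median of 0.10. Against tolerant CD69+ cells the counts were 0 and 0 (7.39% and 8.16%) with a median of -0.10, and against early tolerant 0 higher and 4 lower (6.89% and 6.78%) with a median of -0.34. In CD69- cells, rejecting against naive, 6 were higher (5 with bounds, background 3.67%), with a median of 0.43, and Birc5 had 1.32 and the topoisomerase gene Top2a 1.27. The rejecting CD69- array exceeded each other CD69- array by at least 1.5-fold for 3 of the 15 (background 1.36%). These were Birc5, Top2a and Cdk1, the last detected on no other CD69- array. The rejecting pair difference was smaller than the mean of the other pairs by at least 1.5-fold for 8 of the 15 and larger for 0 (background 6.82% each). Among the 8, Cdk1, Bub1b, Mybl2 and Melk had passed the filter only through CD69+ cells, so their values rest partly on undetected CD69- signals. Plk1, Birc5, Top2a and Prc1 were detected on all 8 arrays.

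**Figure D4:**
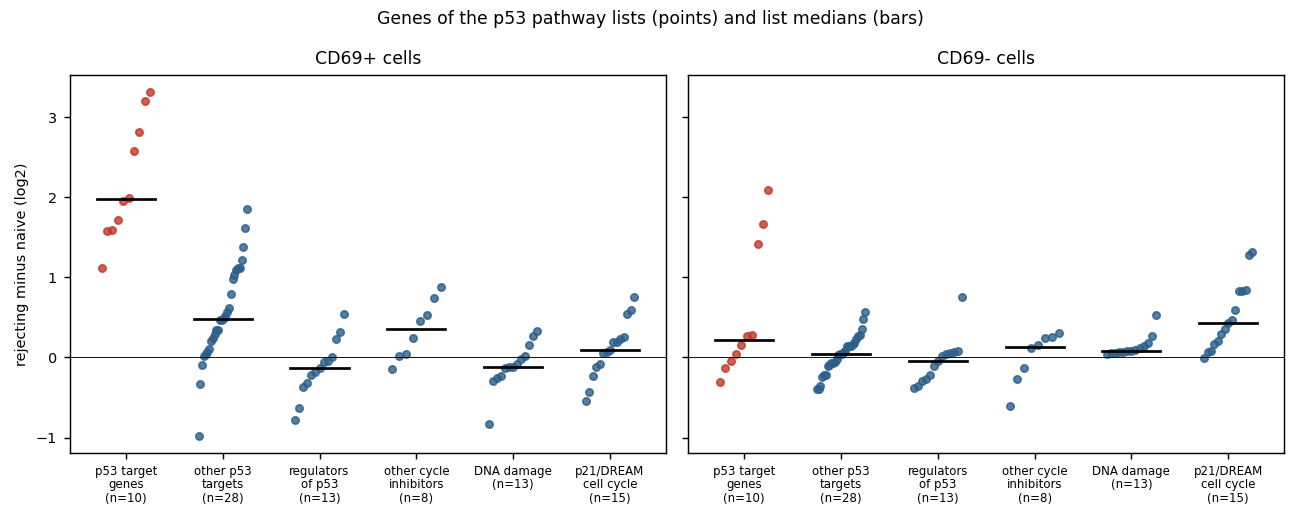
Rejecting minus naive difference (log2) of the genes of each list in CD69+ cells (left) and CD69- cells (right), with 1 point per gene and a bar at the list's median; values of undetected genes are shown as normalized. The 10 p53 target genes and the 28 other targets have medians of 1.97 and 0.48 on the left and of 0.21 and 0.04 on the right.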

How the data were processed

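RNA of the 8 groups was hybridised to Illumina MouseRef-8 arrays. Per the submitters' processing notes, BeadStudio 3.1.3 was used. The authors deposited a mean bead intensity per probe with a detection p-value, per the file headers, and a table of normalized intensities, for which the sources used here name no method. On every array the sorted normalized values lay within 0.083% of the mean of the sorted intensities. Quantile normalization without background correction gives that pattern, and it called the same numbers of genes, 2614 higher and 2788 lower. Identifiers printed beside the non-normalized intensities were out of register: ranks matched all 25697 probes one to one between the deposited tables, and 20106 (78.2%) carried another identifier in the normalized table, whose identifiers were used. Of these probes 23978 had 1 gene symbol, 0 several and 1719 none.

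Intensities were corrected and quantile-normalized on the log2 scale with neqc in limma 3.58.1 (R 4.3.3; offset 16, negative controls inferred from the detection p-values). The offset lowers fold changes of dim genes. Differences with 1 array per group have no test and are counted from 1.5-fold. A ratio against an undetected array is a bound, "at least", taken against whichever was higher on that array, the dimmest detected probe or the gene's own probe. Within a state, deviations of both fractions correlated at 0.209 to 0.345, and recipient state was a block because both fractions of a state share a culture. The 10 genes and all lists were chosen with earlier results of these data known. Named beside them were, of each list, up to 6 genes with the largest rejecting against naive CD69+ difference and up to 4 with the smallest adjusted p, and the 8 genes most correlated with Cdkn1a. The study's 3 criteria and the second brightest probe were taken up after seeing the data.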

Additional observations from a re-analysis of the deposited data

Results flagged for a closer look

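Ccng1 and Mdm2 stood out because their fraction difference had the opposite sign in the rejecting pair and in the other 3 pairs. CD69+ minus CD69- was 1.22 (log2) for Ccng1 under rejection, against -0.46, -0.29 and -0.50 in naive, tolerant and early tolerant cells. For Mdm2 it was 0.91, against -0.35, -0.57 and -0.25. The difference between the pairs was not tested, since the rejecting array had been used to choose the genes.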

How the results depend on the processing

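The 4 genes higher in CD69+ cells outside rejection kept that count under every alternative run, and none of the called differences changed sign. The uncalled fraction differences of Zmat3 (-0.09 without the tolerant pair) and Pmaip1 (-0.11 with the second brightest probe) did. The count of lower genes, 4, became 2 when arrays were scaled to a common median instead of quantile-normalized, with the mean of all probes, with the second brightest probe (an alternative added after seeing the data) and with all 4 pairs in the mean; it ranged from 2 to 3 with 1 pair left out. Ccng1 and Mdm2 were the genes that lost the call. In these runs from 2281 (median scaling) to 2816 (all 4 pairs) of all genes tested were lower, against 2752 in the main run. Without the replicate block for recipient state, 4 were higher and 4 lower, and 5259 genes were called in place of 5314. Of those called genes 2534 were higher and 2725 lower. Median scaling moved the median of all genes from -0.04 to 0.11 (log2). Within single states at 1.5-fold, the second brightest probe gave 1 lower gene in the naive pair (2 otherwise), and it gave 2 genes higher than tolerant in CD69- cells (4 otherwise). The lower gene of the rejecting pair, 1, became 0 with the mean of probes, the second brightest probe and a 2-fold threshold. Signals near background limit Plk2, Pmaip1 and the CD69- side of Phlda3, and the offset sets the size of their differences.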

Other observations

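Among cell cycle inhibitors outside the p53 pathway, 8 were tested. In CD69+ cells outside rejection 5 were lower (background 37.2%), among them the p27 gene Cdkn1b (-3.62, log2, limma adjusted p = 1.47e-05) and Cdkn2d (-1.95, 3.03e-05). The 1 higher gene (background 34.6%), Cdkn2b, was not detected in CD69- cells, passed the filter only through CD69+ cells and was at least 1.60-fold higher. Between rejecting and naive CD69+ cells, Cdkn2d (0.88) and Cdkn2c (0.74) were the 2 at least 1.5-fold higher (background 6.59%), and the median was 0.35 (0.25 with bounds).

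Genes of DNA damage and replication stress were mostly higher in CD69+ cells outside rejection, 9 of 13 tested with 1 lower (backgrounds of 34.6% and 37.2%). The checkpoint adaptor gene Clspn, not detected on the tolerant CD69- array, had 3.73 (log2, limma adjusted p = 1.07e-05) and the recombination gene Rad52 -1.33. Between rejecting and naive CD69+ cells 0 of the 13 were at least 1.5-fold higher (background 6.59%) and 1 lower (5.81%), Lig4 (-0.83), which was 0 with bounds, and the median was -0.12.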
